A study of Mus musculus with 20 samples.

Results

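Fibronectin and 9 integrin subunits were followed in gastruloids and trunk-like structures. The members were chosen by gene name as Fn1, Itga3, Itga4, Itga5, Itga6, Itga8, Itgav, Itgb1, Itgb3 and Itgb5, and these 10 genes are 10 of 54446 gene IDs in the deposited tables. Each name matched a single gene ID. Fn1 had the largest fall of the tested members between 96 h and 120 h, Itga8 took a separate level in every group, and Itga3, Itga5 and Itgb1 depended on the culture at 120 h.

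Fibronectin is a large secreted glycoprotein that cells assemble into fibrils through integrins, which are paired alpha and beta chains that span the membrane and join the matrix to the actin cytoskeleton. The receptors with alpha 4, alpha 5, alpha 8 and alpha v chains bind fibronectin, and those with alpha 3 and alpha 6 chains bind laminins of the basement membrane. Integrin alpha 5 beta 1 is the main receptor for fibrillogenesis, and mouse embryos that lack fibronectin or the alpha 5 chain have severe defects of the trunk mesoderm and the somites.

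The bulk libraries came from 5 groups with 3 libraries each, described by the submitters as biological replicates. The 96h group held 10 pooled structures a library at 96 h after aggregation. The 4 groups at 120 h held 6 pooled structures a library. Gastruloid structures were grown without Matrigel. TLSMG structures, where TLS stands for trunk-like structure, were grown in Matrigel, a basement membrane gel rich in laminin. TLSMGC structures received Matrigel with CHIR99021, a GSK3 inhibitor that activates WNT signalling, and TLSMGCL structures received Matrigel, CHIR99021 and LDN, a BMP receptor inhibitor. Cells of all 5 groups were F1G4 mESC, mouse embryonic stem cells that carry both reporters T::H2B-mCherry and Sox2::H2B-Venus, and all had a 3 µM CHIR99021 pulse at 48 h. The doses and times of Matrigel, of the later CHIR99021 and of LDN are not given in the sources used here. Structures were picked for an asymmetric pole and pooled, so each value is an average over picked structures of 1 cell line. In such bulk samples, fewer cells of a type and less RNA per cell cannot be told apart. The 5 single-cell samples of the series were not analysed here.

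Levels are in TPM, the authors' estimate of transcript abundance corrected for gene length and library size. Log2 differences were computed as log2(TPM + 1), which shrinks the change of low genes. A gene was called when its adjusted p was under 0.05 over the 14290 genes tested. Relative depth, as coverage per FPKM of genes with a single transcript, was lowest at 3.12 and highest at 6.84, which differ 2.19-fold. Markers of the expected tissues were present: the summed TPM of 12 presomitic and tailbud markers was 1724 to 2219 at 96h and 192 to 607 at 120 h. The sum of 12 neural tube markers was 400.2 to 549 in Gastruloid and 214 to 323 in TLSMG, against 63.9 to 93.9 in the other 3 groups. The sum of 11 endothelial markers was 299.9 to 370.5 in TLSMG and 10.1 to 95.8 in the other 4 groups. Blood and megakaryocyte markers summed to at most 7.13 TPM in any library, and of 9 such markers Gp9, Hba-x, Hbb-bh1 and Ptprc were listed at 0 in every group. Of 7 fibroblast feeder markers, which summed to 8.40 to 47.4 TPM, S100a4 was listed at 0 in all groups at 120 h.

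Promoter sequence is shown for 3 members with contrasting patterns in the values that follow: Itga8, whose level was separate in all 5 groups, Itga5, which depended on the culture at 120 h, and Itgb5, which fell once between 96 h and 120 h. Each stretch is the 250 bases before the RefSeq transcription start on build GRCm38.p6, written 5′ to 3′ on the gene's strand. Capitals mark matches to the Sp1 GC box, GGGCGG, on either strand.
Itga8, chr2:12301945-12302194, minus strand: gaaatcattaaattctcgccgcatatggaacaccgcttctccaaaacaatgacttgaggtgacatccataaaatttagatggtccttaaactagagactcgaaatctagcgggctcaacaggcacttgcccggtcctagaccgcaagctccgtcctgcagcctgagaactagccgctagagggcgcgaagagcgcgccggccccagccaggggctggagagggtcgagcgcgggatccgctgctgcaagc
Itga5, chr15:103366792-103367041, minus strand: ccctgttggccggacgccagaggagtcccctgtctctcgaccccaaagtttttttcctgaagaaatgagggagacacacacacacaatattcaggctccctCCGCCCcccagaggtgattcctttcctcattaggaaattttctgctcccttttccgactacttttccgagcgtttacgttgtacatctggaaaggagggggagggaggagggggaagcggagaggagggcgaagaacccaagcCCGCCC
Itgb5, chr16:33829415-33829664, plus strand: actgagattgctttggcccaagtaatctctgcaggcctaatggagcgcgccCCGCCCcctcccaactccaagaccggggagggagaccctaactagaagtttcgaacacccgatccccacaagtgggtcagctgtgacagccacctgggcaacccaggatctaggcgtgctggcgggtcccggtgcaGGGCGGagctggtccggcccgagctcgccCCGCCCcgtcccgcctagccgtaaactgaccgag
The Itga8 window held no match to the GC box, the Itga5 window 2 and the Itgb5 window 3. Of 32851 RefSeq windows of the same length, 32.74% held at least 1. None of the 3 windows held the TCF/LEF motif CTTTGAT (3.205% of all windows), the BMP-SMAD motif GGCGCC (9.586%), the T-box motif AGGTGTGA (1.12%), the cyclic AMP element TGACGTCA (1.546%), CCAAT (33.85%) or TATAAA (12.37%), each searched on both strands. GC content was 56.4% for Itga8, 55.6% for Itga5 and 65.2% for Itgb5, against a median of 52.4% over all windows. RefSeq windows were matched for 7 of the 10 members. Those of Fn1, Itga6 and Itgb3 were not used here. For the members not shown, GC box matches were 4 for Itga3, over more than 1 window, 1 for Itga4, 1 for Itgb1 and 0 for Itgav. Itga3 also held 1 CCAAT match and Itgb1 held 1 BMP-SMAD match.

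**Figure D1:**
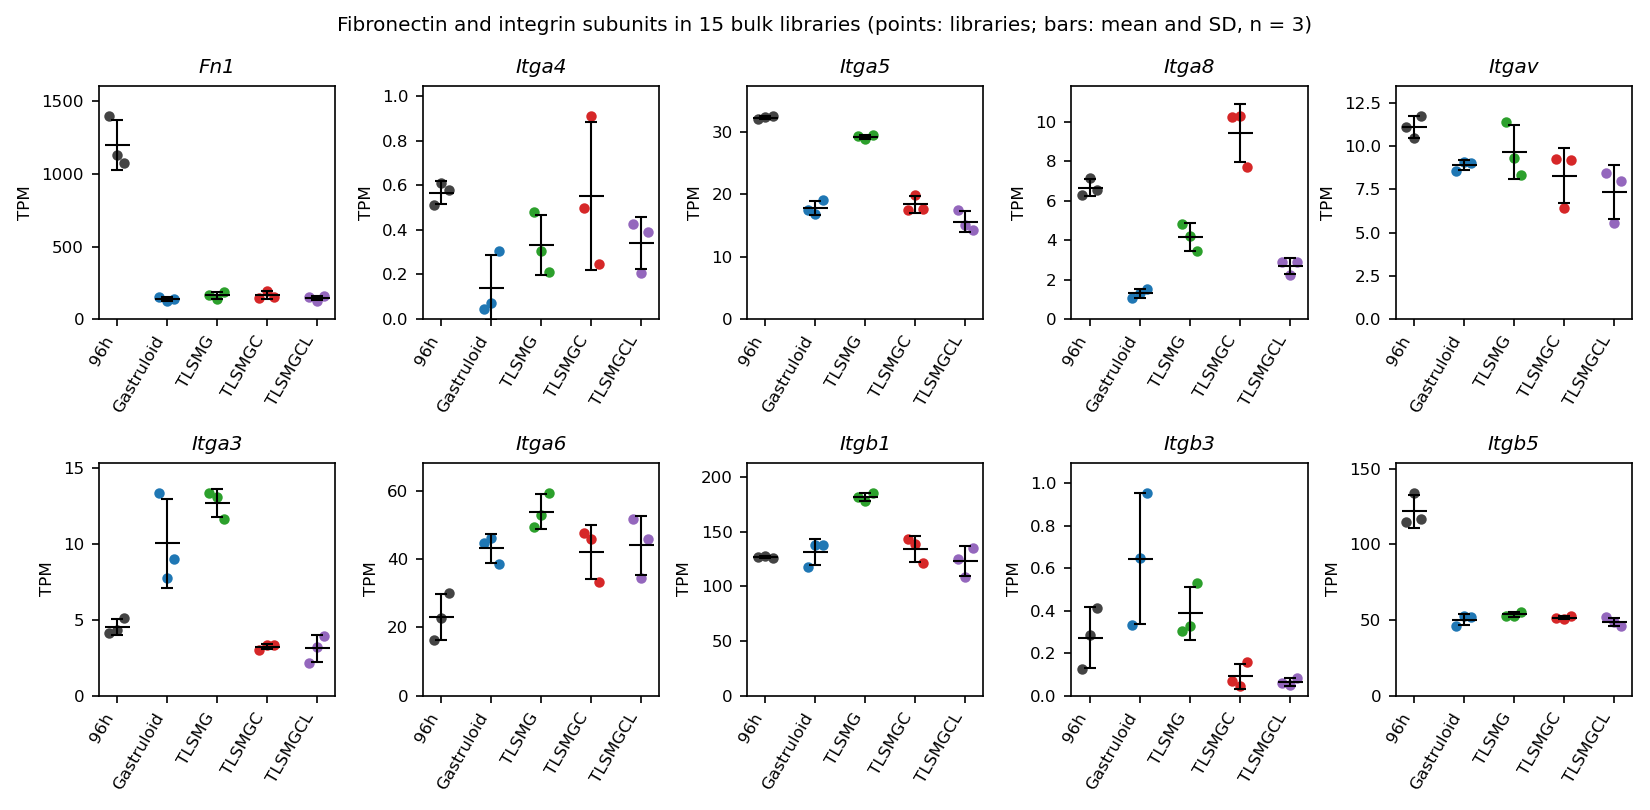
TPM of each member (vertical axes, each starting at 0) in the 5 groups, with points for libraries, and bars for the mean and SD of 3 libraries. Fn1 and Itgb5 are high only at 96h, Itga8 has 5 separate levels, Itga3 is high in Gastruloid and TLSMG, and Itga4 and Itgb3 stay under 1 TPM.

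Fn1, the ligand, was among the more abundant transcripts at 96h and was much lower in each culture at 120 h. Fn1 (ENSMUSG00000026193.15, GRCm38 chromosome 1, 71585520 to 71653200, minus strand, protein coding) measured 1397, 1133 and 1073 TPM in the 96h libraries. Its values were 149.5, 124 and 136 TPM in Gastruloid, 166, 139 and 189 TPM in TLSMG, 145, 194 and 151 TPM in TLSMGC, and 153, 126 and 156 TPM in TLSMGCL. Every 96h library lay above every library at 120 h, and the 4 groups at 120 h overlapped with their neighbours in order. By mean TPM Fn1 ranked 120 among all genes at 96h and between 983 and 1181 in the groups at 120 h. Against 96h, Fn1 fell by 3.12 on the log2 scale in Gastruloid (SE 0.14, adjusted p 1.47e-09, ratio of mean TPM 0.114), by 2.86 in TLSMG (adjusted p 3.39e-09) and by 2.87 in TLSMGC (adjusted p 5.07e-09). At 120 h no test among cultures called Fn1. The difference was 0.26 for TLSMG against Gastruloid (interval -0.04 to 0.56, adjusted p 0.161), -0.01 for TLSMGC against TLSMG (interval -0.32 to 0.29) and -0.16 for TLSMGCL against TLSMGC (interval -0.47 to 0.14). The summed presomitic and tailbud markers given above were also highest at 96h. So was the sum of 11 somite markers, at 1979 to 2560 TPM against 798 to 1265 TPM at 120 h. Of 10 somite markers tested, 6 were higher and 3 lower in Gastruloid against 96h (20.8% and 20.5% of all genes). The part of either list in the Fn1 change was not tested. An antisense gene, Apol7d, shares 292 exon bases with Fn1 on the opposite strand and measured 8.40 to 10.2 TPM at 96h and 0.604 to 2.99 TPM at 120 h. Whether the counting used strand is not given in the sources used here, so reads of the pair may not have been told apart.

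Itga5 encodes the alpha 5 chain, the partner of beta 1 in the main fibronectin receptor. Itga5 (ENSMUSG00000000555.8, chromosome 15, 103344286 to 103366763, minus strand) measured 32.0, 32.3 and 32.4 TPM at 96h and 29.2, 28.7 and 29.5 TPM in TLSMG. The other cultures were lower, at 17.5, 16.8 and 19.0 TPM in Gastruloid, 17.5, 19.9 and 17.7 TPM in TLSMGC and 17.4, 15.0 and 14.2 TPM in TLSMGCL. The libraries of 96h and TLSMG therefore lay apart from all others. Gastruloid libraries overlapped with those of TLSMGC and of TLSMGCL, and every TLSMGCL library lay just below every TLSMGC library. Itga5 fell by 0.83 in Gastruloid against 96h (adjusted p 2.73e-06) and was 0.68 higher in TLSMG than in Gastruloid (SE 0.08, adjusted p 0.000107). It fell by 0.64 in TLSMGC against TLSMG (adjusted p 3.52e-05) and by 0.87 in TLSMGCL against TLSMG (adjusted p 1.95e-06). TLSMG against 96h gave -0.14, which did not pass (adjusted p 0.168), although the libraries did not overlap. With median-of-ratios scaling that value was -0.31 and with FPKM -0.22, and both passed (adjusted p 0.00513 and 0.0221). TLSMGCL against TLSMGC gave -0.23, with an interval of -0.40 to -0.06 but an adjusted p of 0.225.

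Itga8 encodes the alpha 8 chain, a receptor chain for fibronectin and nephronectin known from kidney development. Itga8 (ENSMUSG00000026768.10, chromosome 2, 12106632 to 12301922, minus strand) was called in all 7 comparisons and no pair of groups overlapped. It measured 10.3, 10.3 and 7.73 TPM in TLSMGC and 6.30, 7.14 and 6.56 TPM at 96h. TLSMG followed at 4.83, 4.21 and 3.46 TPM, TLSMGCL at 2.91, 2.23 and 2.91 TPM and Gastruloid at 1.05, 1.34 and 1.5 TPM. Itga8 fell by 1.74 in Gastruloid against 96h (adjusted p 3.28e-07) and by 0.58 in TLSMG against 96h (adjusted p 0.00368). In Matrigel it was 1.17 higher than in Gastruloid (SE 0.14, adjusted p 0.000108), a ratio of mean TPM of 3.21. With CHIR99021 it rose a further 1.01 over TLSMG (adjusted p 7.04e-05), and with LDN it fell by 1.5 below TLSMGC (SE 0.14, interval -1.79 to -1.20, adjusted p 0.000115). The LDN difference held when any 1 library was left out. The summed endothelial markers were 28.4 to 95.8 TPM in TLSMGC and 14.3 to 24.7 TPM in TLSMGCL. These markers summed to 299.9 to 370.5 TPM in TLSMG, and the part of endothelial cells in the Itga8 values was not tested.

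The small Itga8 differences depended on single libraries. TLSMGC against 96h was 0.44 (adjusted p 0.0216). Its adjusted p was 0.0674 without 96h replicate 1, 0.0561 without 96h replicate 3, 0.0805 without TLSMGC replicate 1 and 0.0803 without TLSMGC replicate 2. TLSMGCL against TLSMG was -0.48 (adjusted p 0.0114), and its adjusted p was 0.0533 without TLSMGCL replicate 2 and 0.0599 with median-of-ratios scaling, where the value was -0.33. Mean read depth over the Itga8 exons was 0.278 to 4.20, so these are low levels. The antisense gene E030013I19Rik shares 372 exon bases with Itga8 on the opposite strand and reached at most 0.329 TPM. Npnt, which encodes nephronectin and was picked out after its values were seen, measured 1.32 ± 0.218 TPM at 96h, 3.98 ± 0.484 TPM in Gastruloid, 4.68 ± 0.0965 TPM in TLSMG, 1.31 ± 0.610 TPM in TLSMGC and 0.632 ± 0.0913 TPM in TLSMGCL (mean ± SD, n = 3). The ligand was thus highest in TLSMG and low in TLSMGC, where its receptor chain was highest.

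Itgav and Itga4 complete the fibronectin-binding alpha chains. Itgav (ENSMUSG00000027087.11, chromosome 2, 83724397 to 83806916, plus strand) encodes alpha v, which pairs with several beta chains and binds fibronectin and vitronectin. It measured 11.1, 10.4 and 11.7 TPM at 96h, 8.56, 9.08 and 9.02 TPM in Gastruloid, 11.4, 9.28 and 8.31 TPM in TLSMG, 9.24, 6.43 and 9.19 TPM in TLSMGC and 8.47, 5.57 and 7.97 TPM in TLSMGCL. Groups next to each other in order of mean overlapped, but every 96h library lay above every Gastruloid, TLSMGC and TLSMGCL library. None of the 7 comparisons called Itgav. The nearest were TLSMGC against 96h, at -0.39 (adjusted p 0.0571), and TLSMGCL against TLSMG, at -0.36 (adjusted p 0.0721). The first passed without TLSMGC replicate 3 (adjusted p 0.0493) and the second without TLSMGCL replicate 1 (adjusted p 0.0409). The first also passed with median-of-ratios scaling. Itga4 (ENSMUSG00000027009.18, chromosome 2, 79255426 to 79333123, plus strand), which encodes the alpha 4 chain of the receptor for fibronectin and VCAM1, stayed at 0.0447 to 0.908 TPM and below the filter of a mean of 1 TPM. Its exons had a mean read depth of 0.0535 to 1.03. In a fit without the filter, over 29971 genes, Itga4 in Gastruloid against 96h was -0.47 with an adjusted p of 0.0325.

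Of the laminin-binding chains, Itga6 rose after 96h in the 3 cultures compared with it, and Itga3 rose in Gastruloid and TLSMG. Itga6 (ENSMUSG00000027111.15, chromosome 2, 71745616 to 71858416, plus strand), whose alpha 6 chain is a common laminin receptor of epithelia and stem cells, measured 16.4, 22.7 and 30.0 TPM at 96h. It reached 44.8, 46.3 and 38.5 TPM in Gastruloid, 49.5, 53.0 and 59.5 TPM in TLSMG, 47.8, 45.8 and 33.2 TPM in TLSMGC and 51.7, 34.5 and 45.8 TPM in TLSMGCL. All 96h libraries lay below all others. At 120 h groups next to each other in order of mean overlapped, but every TLSMG library lay above every Gastruloid and TLSMGC library. Against 96h, Itga6 was 0.91 higher in Gastruloid (SE 0.20, adjusted p 0.00226), 1.23 higher in TLSMG (adjusted p 0.000210) and 0.87 higher in TLSMGC (adjusted p 0.00314). The summed fibroblast feeder markers were also lowest at 96h, at 8.40 to 11.9 TPM against 15.2 to 47.4 TPM at 120 h. Of the 4 tested, 3 were higher and 1 lower in each of Gastruloid, TLSMG and TLSMGC against 96h. Of all genes, 20.6% to 33.5% were higher and 12.5% to 20.5% lower there. Lum and S100a4 were listed at 0 in TLSMGC and TLSMGCL. The part of these markers in the Itga6 values was not tested. Among cultures at 120 h Itga6 was not called, with 0.32 for TLSMG against Gastruloid (interval -0.11 to 0.74, adjusted p 0.225). With coverage scaled by depth in place of TPM, that difference was 0.39 and passed (adjusted p 0.0159), and TLSMGC against TLSMG was -0.40 (adjusted p 0.0139) against -0.36 on TPM (adjusted p 0.162).

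Itga3 (ENSMUSG00000001507.16, chromosome 11, 95044474 to 95076801, minus strand) encodes alpha 3, a receptor chain for laminins that hold the laminin alpha 5 chain. It measured 4.13, 4.31 and 5.10 TPM at 96h, 13.4, 7.78 and 8.99 TPM in Gastruloid and 13.4, 13.1 and 11.6 TPM in TLSMG. It was low again with CHIR99021, at 3.01, 3.34 and 3.35 TPM in TLSMGC and 2.16, 3.21 and 3.96 TPM in TLSMGCL. Libraries of Gastruloid and TLSMG overlapped with each other and lay above all libraries of the other 3 groups. Itga3 was 0.97 higher in Gastruloid (adjusted p 0.000698) and 1.31 higher in TLSMG (adjusted p 5.17e-05) than at 96h. It fell by 1.69 in TLSMGC against TLSMG (SE 0.18, adjusted p 7.90e-06) and by 1.76 in TLSMGCL against TLSMG (adjusted p 4.51e-06), while TLSMGCL against TLSMGC gave -0.07 (interval -0.45 to 0.32). TLSMG against Gastruloid was 0.34 and did not pass (adjusted p 0.149), and without Gastruloid replicate 1 it was 0.55 and passed (adjusted p 0.0250). The summed neural tube markers were high in the same groups, at 400.2 to 549 TPM in Gastruloid and 214 to 323 TPM in TLSMG, and 76.6 to 93.9 TPM at 96h, 63.9 to 78.2 TPM in TLSMGC and 76.4 to 91.0 TPM in TLSMGCL. Their part in the Itga3 values was not tested.

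Of the beta chains, Itgb1 was abundant everywhere and Itgb5 fell with time. Itgb1 (ENSMUSG00000025809.15, chromosome 8, 128685654 to 128733200, plus strand) encodes beta 1, the common partner of alpha 3, alpha 4, alpha 5, alpha 6 and alpha 8. It measured 127, 128 and 126 TPM at 96h, 118, 138 and 138 TPM in Gastruloid, 144, 139 and 121 TPM in TLSMGC and 125, 109 and 136 TPM in TLSMGCL. TLSMG lay above all of these, at 182, 179 and 186 TPM. Itgb1 was 0.52 higher in TLSMG than at 96h (adjusted p 0.000289) and 0.47 higher than in Gastruloid (SE 0.09, adjusted p 0.00117), and it fell by 0.44 in TLSMGC against TLSMG (adjusted p 0.00127). The median of all genes moved the same way, by 0.13 for TLSMG against Gastruloid and by -0.16 for TLSMGC against TLSMG. With median-of-ratios scaling, which sets those medians near 0, the Itgb1 differences were 0.30 (adjusted p 0.00552) and -0.28. The size of the Itgb1 difference depended on the scaling and its direction did not. The summed endothelial markers were also highest in TLSMG, and they summed to 10.1 to 15.0 TPM at 96h. Their part in the Itgb1 and Itga5 values was not tested.

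Itgb5 (ENSMUSG00000022817.15, chromosome 16, 33829665 to 33949338, plus strand) encodes beta 5, which pairs with alpha v in a receptor for vitronectin. It measured 114, 134 and 117 TPM at 96h. At 120 h it was 45.8, 52.7 and 51.7 TPM in Gastruloid, 52.9, 52.8 and 55.5 TPM in TLSMG, 51.1, 50.5 and 52.3 TPM in TLSMGC and 51.7, 48.4 and 46.2 TPM in TLSMGCL. The 96h libraries were all above those at 120 h, where the range was narrow and TLSMG lay just above the other 3 groups. Itgb5 fell by 1.26 in Gastruloid against 96h (SE 0.07, adjusted p 1.40e-08), by 1.16 in TLSMG (adjusted p 3.18e-08) and by 1.23 in TLSMGC (adjusted p 2.76e-08). The differences among cultures at 120 h lay between -0.14 and 0.10 and none was called. Itgb3 (ENSMUSG00000020689.4, chromosome 11, 104608000 to 104670476, plus strand), the other alpha v partner and a platelet and endothelial chain, stayed below the filter. It measured 0.334 to 0.953 TPM in Gastruloid, 0.305 to 0.532 TPM in TLSMG, 0.124 to 0.410 TPM at 96h, 0.0447 to 0.158 TPM in TLSMGC and 0.0475 to 0.0831 TPM in TLSMGCL. In the fit without the filter, TLSMGCL against TLSMG was -0.38 with an adjusted p of 0.0410.

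**Figure D2:**
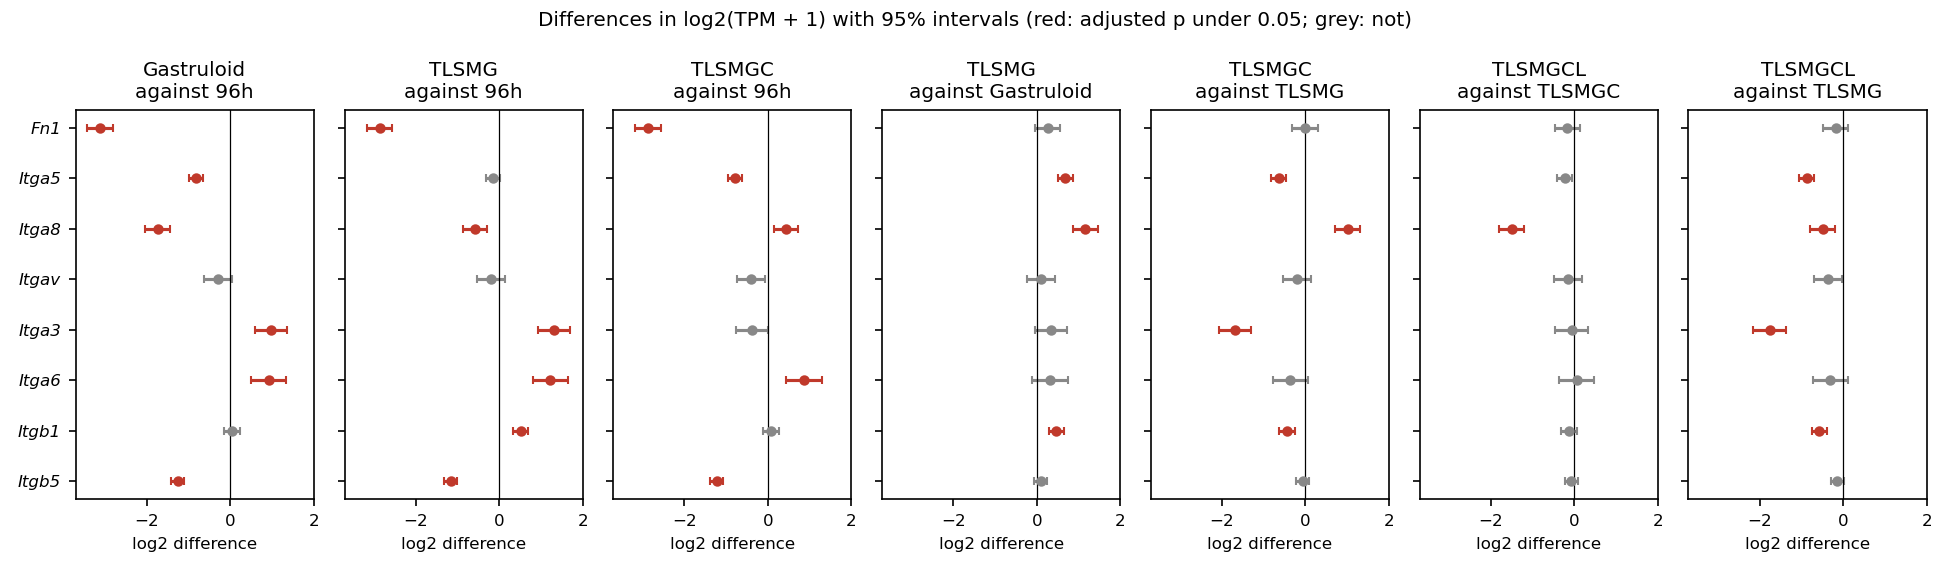
Log2 differences of the 8 tested members (points) with 95% intervals (bars) in the 7 comparisons, red where the adjusted p was under 0.05. Fn1 and Itgb5 are shifted against 96h and lie near 0 among the cultures at 120 h, and Itga8 is the sole red point for TLSMGCL against TLSMGC.

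Against 96h, 5 or 6 of the 8 members that passed the filter were called, and between cultures 1 to 4 were. In Gastruloid against 96h, 2 of the 8 tested were higher and 4 lower, where 20.8% of all tested genes were higher, 20.5% lower and 41.2% called in all. In TLSMG against 96h, 3 were higher and 3 lower, where 33.5% of all genes were higher, 12.5% lower and 46% called. In TLSMGC against 96h, 2 were higher and 3 lower, where 20.6% of all genes were higher, 20.1% lower and 40.7% called. With Matrigel, TLSMG against Gastruloid, 3 were higher and 0 lower, where 31.5% were higher, 7.87% lower and 39.3% called. With CHIR99021, TLSMGC against TLSMG, 1 was higher and 3 lower, where 10.4% were higher, 30.5% lower and 40.9% called. TLSMGCL against TLSMG had 0 higher and 4 lower, where 9.31% were higher, 35.6% lower and 44.9% called. Few genes of any kind were called with LDN. In TLSMGCL against TLSMGC 1.18% of all genes were called, 0.406% higher and 0.777% lower, and Itga8 was the 1 member among them. That count of 169 genes was 56 without TLSMGC replicate 2, 70 without TLSMGCL replicate 1 and 78 without TLSMGCL replicate 3. The median difference of the tested members was 0.33 for TLSMG against Gastruloid, where that of all genes was 0.13. It was -0.28 for TLSMGC against TLSMG (all genes -0.16) and -0.14 for TLSMGCL against TLSMGC (all genes -0.04). Libraries did not overlap between Gastruloid and 96h for 7 of the 8 members (56.8% of all genes), between TLSMG and 96h for 7 (58.4%), and between TLSMGC and 96h for 7 (52.3%). They did not overlap between TLSMG and Gastruloid for 5 (52.3%), between TLSMGC and TLSMG for 6 (52.4%), between TLSMGCL and TLSMG for 5 (54.7%) and between TLSMGCL and TLSMGC for 2 (15.8%). These comparisons share libraries and are not independent. A moderated F test across all 5 groups called 8 of the 8 tested members (73.5% of all genes), Itgav only narrowly (adjusted p 0.0455). Among the 4 groups at 120 h it called Itga8, Itga3, Itga5 and Itgb1 (adjusted p 2.32e-07, 2.83e-06, 5.70e-06 and 0.000401), 4 of 8, with 62.7% of all genes called. Fn1 (adjusted p 0.276), Itgb5 (0.357), Itga6 (0.335) and Itgav (0.204) did not pass that test.

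Among the 6 alpha subunits followed here, the fibronectin-binding chains made up a larger share at 96h than at 120 h. Of the summed TPM of the 6 alpha subunits, the fibronectin-binding 4 took 65.1% ± 5.73 at 96h, 34.7% ± 3.54 in Gastruloid, 39.4% ± 2.7 in TLSMG, 44.9% ± 3.44 in TLSMGC and 35.6% ± 2.04 in TLSMGCL (SD, n = 3). The deposited coverage gave other levels for some genes. Coverage per FPKM had a median of 0.422 for Itga6, 0.562 for Itgb5 and 0.758 for Itga8, against 3.70 for Itga5 and 3.48 for Itgb1, so TPM and coverage disagreed on how these genes rank against each other. On coverage scaled by depth the same share was 88.6% ± 1.04, 62.2% ± 4.95, 65.9% ± 0.755, 78.2% ± 1.25 and 73.1% ± 1.46 in the same order of groups. On both scales every 96h library lay above every library at 120 h and TLSMGC had the highest mean share at 120 h, but the order of TLSMG and TLSMGCL differed. These shares leave out Itga9, a further chain that binds a segment of fibronectin and rose after 96h. With Itga9 counted as fibronectin-binding, an alternative added after seeing the data, the share by TPM was 67.2% ± 5.80 at 96h, 49.5% ± 4.88 in Gastruloid, 54.9% ± 1.90 in TLSMG, 57.8% ± 2.33 in TLSMGC and 51.3% ± 1.24 in TLSMGCL. The lowest 96h library, at 61.4%, was then just above the highest at 120 h, at 60.5%. By coverage the share with Itga9 was 88.7% ± 1.05 at 96h and group means of 64.6% to 79.8% at 120 h. Itga6 alone went from 29.1% ± 5.70 of alpha TPM at 96h to group means of 49.0% to 60% at 120 h, and on coverage from 5.25% ± 0.866 to means of 12% to 18.5%. Among the 3 beta subunits, Itgb5 took 48.8% ± 2.07 of TPM at 96h and group means of 22.7% to 28.5% at 120 h, and on coverage 13.3% ± 0.442 and 4.10% to 6.11%.

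**Figure D3:**
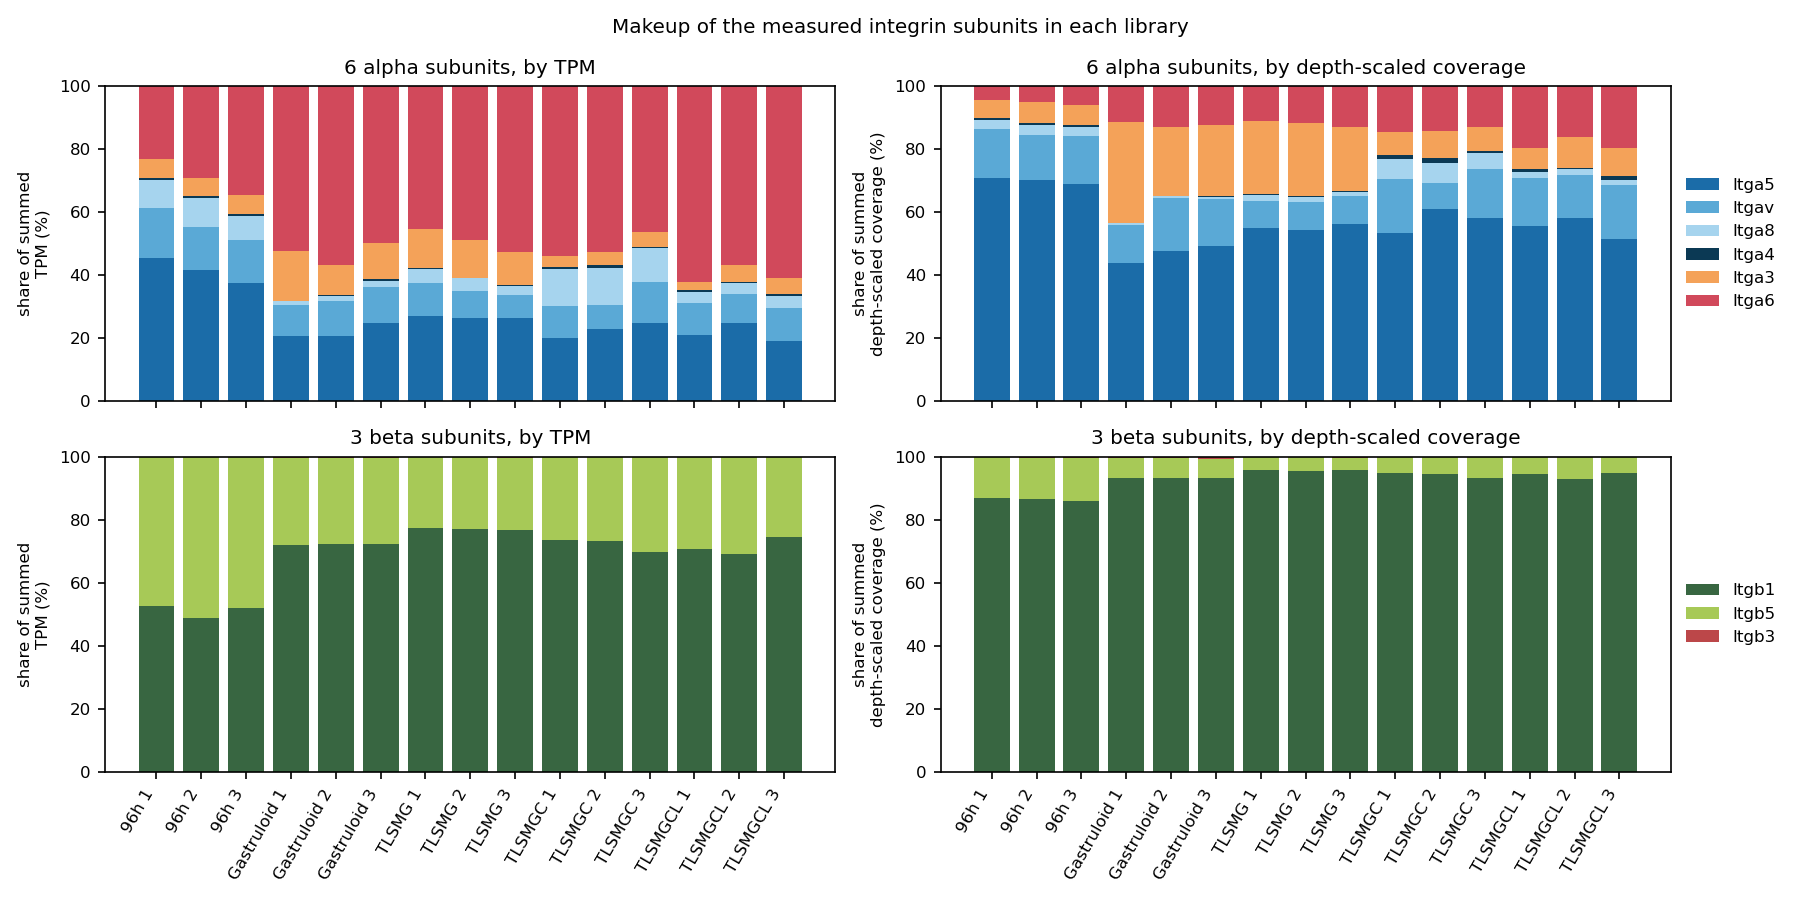
Share of each subunit (vertical axes, % of the summed value) in the 15 libraries, for the 6 alpha subunits (top) and 3 beta subunits (bottom), by TPM (left) and by depth-scaled coverage (right). The blue fibronectin-binding share is highest at 96h on both scales, and Itga6 and Itgb5 take much less of the total by coverage than by TPM.

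Of 17 other integrin subunits 3 passed the filter, Itga9, Itga1 and Itgb8, and the first pair changed in opposite directions after 96h. Itga9, a receptor chain for tenascin and for the EIIIA segment of fibronectin, measured 5.12 ± 0.584 TPM at 96h, 24.1 ± 3.50 TPM in Gastruloid, 38.0 ± 1.52 TPM in TLSMG, 25.2 ± 3.62 TPM in TLSMGC and 23.4 ± 3.91 TPM in TLSMGCL. It rose by 2.03 in Gastruloid against 96h (adjusted p 7.30e-08) and was 0.64 higher in TLSMG than in Gastruloid (adjusted p 0.00270). Itga1, a collagen receptor chain, went the other way, from 5.69 ± 0.298 TPM at 96h to 0.235 ± 0.0625 TPM in Gastruloid (log2 difference -2.44, adjusted p 1.5e-09), and group means of 1.02 to 1.59 TPM in Matrigel. Itgb8, an alpha v partner that binds latent TGF-beta, had means of 2.51 TPM in Gastruloid and 2.59 TPM in TLSMG, and 0.593 to 1.13 TPM in the other 3 groups.

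Of the integrin adaptors and kinases, which link the cytoplasmic tails to actin and signalling, more were lower than higher in both CHIR99021 groups against TLSMG. The gene lists here and below were chosen with earlier results of these data known, so their counts are descriptions. Of 34 adaptors and kinases 30 were tested. In TLSMG against Gastruloid 12 were higher and 3 lower, where 31.5% of all genes were higher and 7.87% lower. In TLSMGC against TLSMG 2 were higher and 18 lower, where 10.4% and 30.5% of all genes were, with a list median of -0.42 and a median of all genes of -0.16, and median-of-ratios scaling gave 3 and 13. TLSMGCL against TLSMG had 1 higher and 22 lower (9.31% and 35.6% of all genes), which became 3 and 12 with that scaling. The shares of all genes beside list counts, here and below, are from the fit on TPM without rescaling. They do not apply to the rescaled counts. With median-of-ratios scaling, the higher share of all called genes moved from 25.5% to 49.4% in TLSMGC against TLSMG. In TLSMGCL against TLSMG it moved from 20.7% to 48.8%. The same share moved from 72.9% to 49.2% in TLSMG against 96h and from 80.0% to 51.6% in TLSMG against Gastruloid. Gastruloid against 96h had 6 higher and 7 lower (20.8% and 20.5% of all genes), and 11 and 6 with FPKM, so the balance depended on the unit. TLSMG against 96h had 11 and 4 (33.5% and 12.5%), and 10 and 9 with median-of-ratios scaling. TLSMGC against 96h had 3 and 15 (20.6% and 20.1%), and 3 and 16 with that scaling. TLSMGCL against TLSMGC had 1 lower, the parvin gene Parvb, whose protein binds integrin-linked kinase. Parvb measured 11.3 ± 1.69 TPM at 96h, 3.96 ± 0.382 in Gastruloid, 11 ± 0.535 in TLSMG, 5.79 ± 0.433 in TLSMGC and 3.28 ± 0.415 in TLSMGCL.

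Single adaptors showed separate patterns. Tns2, a tensin that binds beta tails, rose by 1.71 in TLSMG against 96h (adjusted p 2.93e-07) and fell by 2.15 in TLSMGC against TLSMG (adjusted p 7.47e-08), from 24.1 ± 2.67 TPM to 4.68 ± 0.929 TPM. Its relative Tns1 was higher in TLSMGC than in TLSMG by 0.81 (adjusted p 0.00283), at 12.8 ± 4.57 TPM against 6.66 ± 0.861 TPM. Zyx, a focal adhesion protein, was highest at 96h with 159 ± 20.9 TPM and lowest in TLSMG with 84.0 ± 5.03 TPM (log2 difference -0.91, adjusted p 6.57e-07). Parva rose by 0.88 in Gastruloid against 96h (adjusted p 0.000613), and Tgfb1i1, the paxillin relative Hic-5, fell by 1.37 in TLSMGC against 96h (adjusted p 9.81e-05). Endothelial markers were highest in TLSMG, with the sums given above, and their part in these values was not tested.

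Most of the other integrin ligands were also lower in both CHIR99021 groups than in TLSMG. Of 25 listed ligands 21 were tested. Gastruloid had 11 higher and 5 lower against 96h (20.8% and 20.5% of all genes), TLSMG had 12 and 2 against 96h (33.5% and 12.5%), and TLSMGC had 3 and 8 against 96h (20.6% and 20.1%). TLSMG had 9 higher and 2 lower against Gastruloid, near the 31.5% and 7.87% of all genes, which became 8 and 4 with median-of-ratios scaling. TLSMGC against TLSMG had 2 higher and 17 lower, where 10.4% and 30.5% of all genes were, with a list median of -0.99 and a median of all genes of -0.16. TLSMGCL against TLSMG also had 2 and 17 (9.31% and 35.6% of all genes), which became 2 and 13 with that scaling, with a list median of -1.10 and a median of all genes of -0.18. Emilin1, an elastic fibre glycoprotein, rose from 5.79 ± 1.26 TPM at 96h to 54.9 ± 1.86 TPM in TLSMG (log2 difference 3.06, adjusted p 6.91e-10). Vtn, vitronectin, rose from 1.68 ± 0.484 TPM at 96h to 14.5 ± 1.51 TPM in Gastruloid (adjusted p 1.31e-06), and it was 1.07 higher in TLSMGCL than in TLSMGC (adjusted p 0.0426).

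The laminin chains Lama1 and Lama5 had separate patterns. Mean Lama1 was 47.2 TPM at 96h and 15.8 to 22.5 TPM in the groups at 120 h. Mean Lama5 was 20.1 TPM at 96h, 19.7 TPM in Gastruloid and 19.1 TPM in TLSMG. It was 37.1 TPM in TLSMGC and 41.4 TPM in TLSMGCL. Lama1, the early basement membrane alpha chain, fell from 47.2 ± 1.85 TPM at 96h to 21.4 ± 0.728 TPM in TLSMG (log2 difference -1.11, adjusted p 1.52e-07), and it was lower in TLSMGCL than in TLSMGC (log2 difference -0.40, adjusted p 0.0331). Lama5 measured 19.1 ± 3.09 TPM in TLSMG and 37.1 ± 3.66 TPM in TLSMGC, 0.93 higher (adjusted p 0.000313), where its receptor chain Itga3 was lower. Nid1, nidogen, was 1.32 higher in TLSMG than in Gastruloid (adjusted p 0.000396). Thbs1, thrombospondin, fell by 1.99 in TLSMGC against TLSMG (adjusted p 5.45e-06), from 5.08 ± 0.535 TPM to 0.580 ± 0.526 TPM. Tgfb1, whose latent form binds alpha v integrins, fell by 1.53 in Gastruloid against 96h (adjusted p 0.000229).

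Fibronectin matrix partners, which hold syndecans, fibulins, proteases and crosslinkers among others, had 14 of 16 genes tested. The tensin gene Tns1 is in this list and in the adaptor list, so it is counted in each. It was among the higher genes in TLSMGC and in TLSMGCL against TLSMG. TLSMG against 96h had 7 higher and 1 lower (33.5% and 12.5% of all genes), which became 6 and 4 with median-of-ratios scaling. TLSMG against Gastruloid had 6 and 2 (31.5% and 7.87%), which became 4 and 2. TLSMGC against TLSMG had 3 and 9 (10.4% and 30.5%), with a list median of -0.62 and a median of all genes of -0.16. TLSMGCL against TLSMG had 2 and 9 (9.31% and 35.6%), with a list median of -0.70 and a median of all genes of -0.18. Endothelial and neural tube markers were lower in TLSMGC than in TLSMG as well, with the sums given above, and their part in the ligand and partner counts was not tested. Plau, the urokinase that activates plasmin, measured 0.218 ± 0.184 TPM at 96h, 1.67 ± 0.107 in Gastruloid, 12.7 ± 1.47 in TLSMG, 0.979 ± 0.404 in TLSMGC and 0.655 ± 0.230 in TLSMGCL. It was 2.35 higher in TLSMG than in Gastruloid (adjusted p 3.29e-06) and fell by 2.80 in TLSMGC (adjusted p 4.03e-08). Mmp2, a gelatinase that also cleaves fibronectin, fell from 35.9 ± 3.29 TPM at 96h to 12.8 ± 1.16 TPM in TLSMGC (log2 difference -1.42, adjusted p 1.25e-06). Hspg2, perlecan, fell by 1.13 in Gastruloid against 96h (adjusted p 1.19e-06), and Tgm2, the transglutaminase that crosslinks fibronectin, rose by 1.66 there (adjusted p 0.000470). Sdc4, a syndecan coreceptor for fibronectin, fell by 0.30 in TLSMG against Gastruloid (adjusted p 0.0110), and Fbln2 rose by 0.92 in TLSMGC against TLSMG (adjusted p 0.00317).

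**Figure D4:**
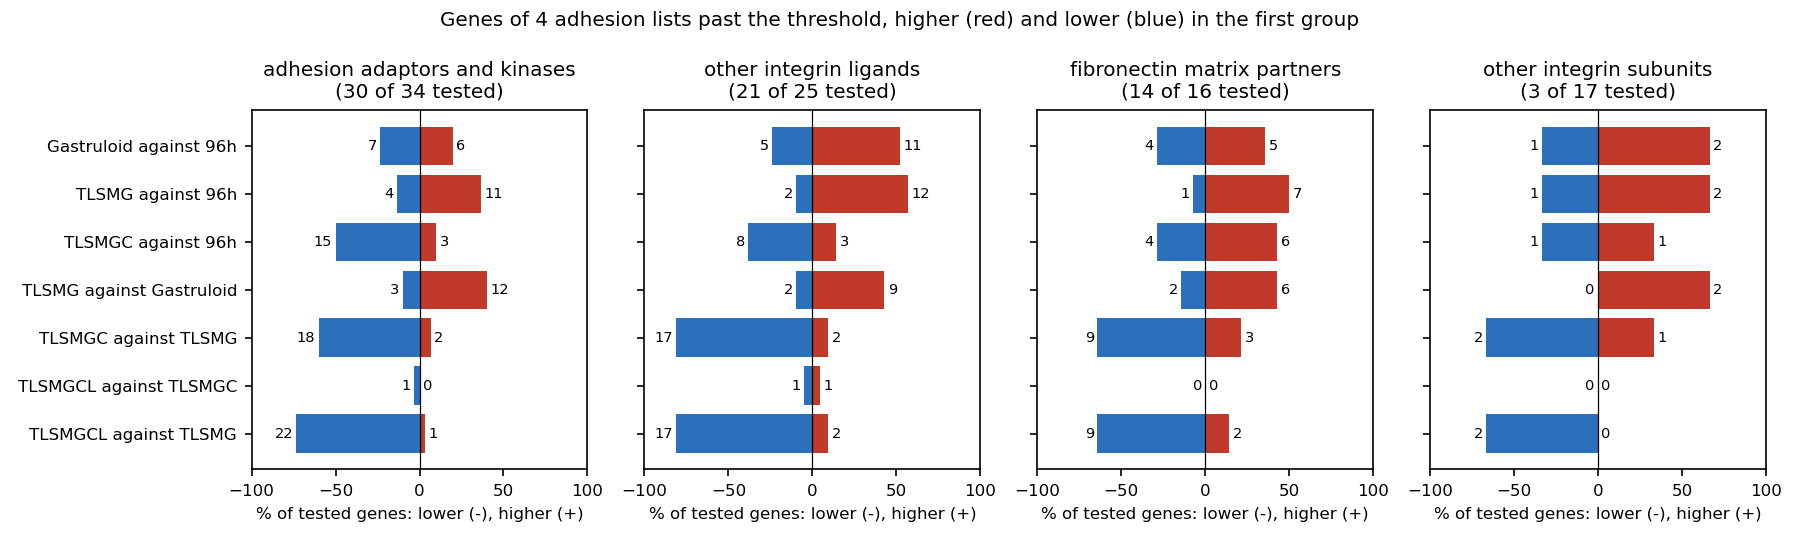
Percentage of tested genes of 4 lists that were higher (red, right) or lower (blue, left) in the first group of each comparison, with gene counts beside the bars. TLSMGC and TLSMGCL against TLSMG have 17 lower ligands and 18 and 22 lower adaptors, and TLSMGCL against TLSMGC has at most 1 in either direction in any list.

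The genes whose log2 levels followed Fn1 most closely over the 15 libraries, of 9017 genes that were no members and had a mean of at least 10 TPM, were Slit3 (Pearson's r 0.983), Lfng (0.981), Dnmt3b (0.977), Rnd3 (0.977) and Foxh1 (0.973). Lfng, the Notch modifier of the segmentation clock, measured 213 ± 23.6 TPM at 96h and group means of 26.0 to 30.4 TPM at 120 h. Foxh1, a nuclear partner of Nodal signalling, measured 200.1 ± 37.8 TPM at 96h and 5.75 to 10.7 TPM at 120 h. Over the 12 libraries at 120 h alone r was 0.40 for Slit3, -0.14 for Lfng, 0.50 for Dnmt3b, 0.60 for Rnd3 and -0.12 for Foxh1. The likeness thus rested on the 3 libraries at 96h. Of the members, which stood outside that ranking, Itgb5 had r 0.976 with Fn1 over the 15 libraries and 0.20 over the 12, and Itga6 had -0.82 and 0.47. The libraries share their group means, so these values are descriptions.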

How the data were processed

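RNA was sequenced from stranded poly(A) libraries in paired-end mode, per the labels' protocols. The submitters' processing notes name cutadapt 2.4, STAR 2.7.3a, StringTie 2.0 and mm10, with no order or options. The TPM values are the authors' StringTie gene abundances, per the file headers, and sum to 1e+06 in each library. The deposited FPKM and coverage (mean read depth over exons) stand beside them, per the file headers. Replicates were not pooled. Lines repeating a gene ID, 7 to 13 a table, were summed. Of the gene IDs, 54409 matched GENCODE M21, so coordinates are on GRCm38.

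No counts were used, so no counting intervals were computed, and depth is given as coverage per FPKM. log2(TPM + 1) of the 14290 genes with a mean of at least 1 TPM was fitted with limma 3.58.1 in R 4.3.3, all 5 groups in 1 model with a mean trend. P-values were two-sided and Benjamini-Hochberg adjusted within each of 7 comparisons, with a threshold of 0.05. Loading and drawing used Python 3.11.15. The fit was tested on simulated data. P-values measure the spread between libraries of pooled structures.

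All 10 members are named. From each list and comparison, the largest rise and fall are named among called genes without overlap between libraries and with at least 5 TPM in the higher group, and the 5 genes most correlated with Fn1. Members and lists were chosen with earlier results of these data known. Ccn1 and Ccn2 were matched by gene ID. Alternatives were other pseudocounts (0.1 and 5), filters, median-of-ratios scaling, FPKM, a replicate block, no trend, only the compared groups, and leaving out each library. Coverage scaled by library depth, and Itga9 among the fibronectin-binding chains, were added after seeing the data.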

Additional observations from a re-analysis of the deposited data

How the results depend on the processing

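Over the alternatives, the members called ranged from 5 to 7 in Gastruloid against 96h, 5 to 7 in TLSMG against 96h, 4 to 6 in TLSMGC against 96h, 2 to 4 in TLSMG against Gastruloid, 3 to 5 in TLSMGC against TLSMG and 3 to 5 in TLSMGCL against TLSMG. TLSMGCL against TLSMGC had 1, and 0 with a filter at a mean of 5 TPM, where Itga8 (mean 4.85 TPM) is not among the tested genes. Differences that passed in the fit kept their direction in all alternatives run. Sign changes fell on differences that had not passed. With median-of-ratios scaling, TLSMG against Gastruloid was -0.0547 for Itgav and -0.0664 for Itgb5, TLSMGC against TLSMG was 0.0954 for Itgb5 and 0.148 for Fn1, and TLSMGCL against TLSMG was 0.0597 for Itgb5 and 0.0222 for Fn1. With FPKM, TLSMG against Gastruloid was -0.0527 for Itgav and -0.0697 for Itgb5, and TLSMGC against TLSMG was 0.0450 for Itgb5 and 0.0972 for Fn1. With depth-scaled coverage, TLSMG against Gastruloid was -0.192 for Itgav and -0.0319 for Itgb5, TLSMGC against TLSMG was 0.0246 for Itgb5 and 0.0819 for Fn1, and TLSMGCL against TLSMGC was 0.0278 for Itgav. Leaving out single libraries gave -0.0144 to 0.191 for Itgav in TLSMG against Gastruloid and -0.143 to 0.0921 for Fn1 in TLSMGC against TLSMG. In TLSMGCL against TLSMGC it gave -0.105 to 0.217 for Itga6, -0.214 to 0.111 for Itga3 and -0.311 to 0.00376 for Itgav. The cause was not tested. The share of higher genes among all called moved with median-of-ratios scaling from 72.9% to 49.2% in TLSMG against 96h, 80.0% to 51.6% in TLSMG against Gastruloid, 25.5% to 49.4% in TLSMGC against TLSMG, 34.3% to 51.0% in TLSMGCL against TLSMGC and 20.7% to 48.8% in TLSMGCL against TLSMG. In TLSMGCL against TLSMGC, 169 genes were called in all, 42 with only the compared groups, 56 without TLSMGC replicate 2, 70 without TLSMGCL replicate 1 and 78 without TLSMGCL replicate 3. Among 2-group fits alone, Itgav in Gastruloid against 96h (adjusted p 0.0238), Itga3 in TLSMGC against 96h (0.0364) and Itga6 in TLSMG against Gastruloid (0.0383) passed in limma.

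Same-numbered libraries did not deviate together (mean r from -0.07 to 0.04), so the numbers were not taken as pairs. With the replicate block, 6 members were called in TLSMGC against 96h and 5 in TLSMGCL against TLSMG, 1 more in each. That member was Itgav, at -0.39 and -0.36 (adjusted p 0.0384 and 0.0495 in limma), and the block changed no other member's call.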
